A study of Mus musculus with 20 samples.

Results

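The retina of Nrl-/- mice was compared between 2 months and 1 month of age. The members were the 4 arrays labelled as Nrl knockout at 2 months and the 4 labelled as Nrl knockout at 1 month, 8 of the 20 arrays of a series that also covers 4, 6 and 10 months. All mice were Nrl-/- on the C57Bl/6J strain, no treatment is named in the labels, and each sample was the pair of retinas of 1 mouse on 1 exon array. The question, from the title of the series, is what changes as the cone-only retina enters a rapid but passing phase of degeneration and remodelling. No wild-type retina was analysed here, so effects of the missing factor and ordinary maturation between these ages cannot be told apart.

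Nrl encodes a transcription factor that commits newborn photoreceptors to the rod fate. Without it the same cells become cone-like photoreceptors, and the retina forms with cones in place of rods. In a retina whose photoreceptors are stressed, microglia are known to migrate to the damage and to make complement, and Muller glia, the radial glia that span the tissue, are known to switch on acute-phase and growth factor genes. Each array measured RNA of the whole retina, so more cells of a type and more RNA per cell cannot be told apart.

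All levels are log2 array signals summarised per gene, and a difference of 1 on this scale is a doubling. Nrl itself had a mean log2 level of 6.20 ± 0.13 (SD, n = 4) at 1 month and 6.10 ± 0.15 at 2 months. The labels do not say whether the deletion covers these probe sets, and the genotype is not checked by them. Markers of the tissue were in place, with the short-wavelength opsin gene Opn1sw at 13.68 ± 0.03 and the cone transducin gene Gnat2 at 12.94 ± 0.06 at 1 month. The rod genes Nr2e3 and Gnat1 had log2 levels of 5.45 ± 0.30 and 6.29 ± 0.02, where genes under 5.61 were left out as dim. Other genes of the rod list were bright at 1 month, such as Reep6 (10.22 ± 0.09) and Pde6b (9.09 ± 0.03). The mean of that list was 8.90 to 8.98 in the 1 month arrays.

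A gene was called when its adjusted p from limma was under 0.05, in a fit over all 20 arrays with 1 mean per age. Of 11824 genes tested, 1008 were called, 8.53% of all. They divided into 386 that rose (3.26%) and 622 that fell (5.26%). Counts of called genes in the lists below stand beside these shares. The unadjusted limma p was under 0.05 in 2586 of the tested genes. Most changes were small. The median called rise was 0.33 and the median called fall -0.31, and 53 rises and 46 falls reached 1.5-fold. The median difference of all tested genes was 0.01. In 2030 genes (17.2%) the 4 arrays of one age did not overlap the 4 of the other, and 905 of the called genes were among them. A lack of overlap thus adds little to a call.

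The groups also differed in ways other than the age label. The Y-linked genes Eif2s3y and Kdm5d had a mean log2 level of 7.93 to 8.27 in the 1 month arrays and 4.01 to 4.28 in the 2 month arrays. Sex is not among the labels. These genes, and listed X-linked genes that escape inactivation such as Kdm6a (0.71 higher at 2 months), were therefore set aside. Of the other X-linked genes, 21 of 342 were called (6.14%). The 4 month arrays were high in Y-linked genes like those of 1 month, and of the 10 month arrays replicates 2 and 3 were low and replicates 1 and 4 high. The mean log2 levels of the low and the high arrays of 10 months were close for some of the genes described here, such as C4b (9.38 and 9.35), Fgf2 (8.59 and 8.66) and Esrrb (8.86 and 8.93). They were apart for Ifit1 (5.83 and 6.74), Serpina3n (9.31 and 9.97), Slc7a11 (6.77 and 7.37), Cxcl13 (5.72 and 6.30) and Xbp1 (9.68 and 10.15). All of these were lower in the low arrays of 10 months, and all rose at 2 months, where every array was low. Differences between the low and high arrays of 10 months were not tested. Drd4 (10.58 and 10.02) rose at 2 months and was higher in the low arrays. Clk4 (8.15 and 8.66), Nr4a1 (10.85 and 11.27) and Luc7l3 (9.51 and 9.84) fell at 2 months and were lower in the low arrays. The low and high arrays of 10 months also differed in pigment epithelium genes. Dct (7.38 and 9.47), Tyrp1 (6.53 and 8.21) and Rpe65 (6.80 and 8.12) were lower in the low arrays, while Best1 and Slc45a2 were slightly higher. How far this bears on the other genes was not tested. Genes of the lens formed the other difference. The mean log2 level of 9 lens genes lay between 7.21 and 7.72 at 1 month and between 6.54 and 6.83 at 2 months, without overlap. With the Y-linked level of each array as a covariate 125 genes were called, and with the lens level 77. Neither level overlapped between the ages, so sex, lens signal and age cannot be told apart in these 8 arrays.

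**Figure D1:**
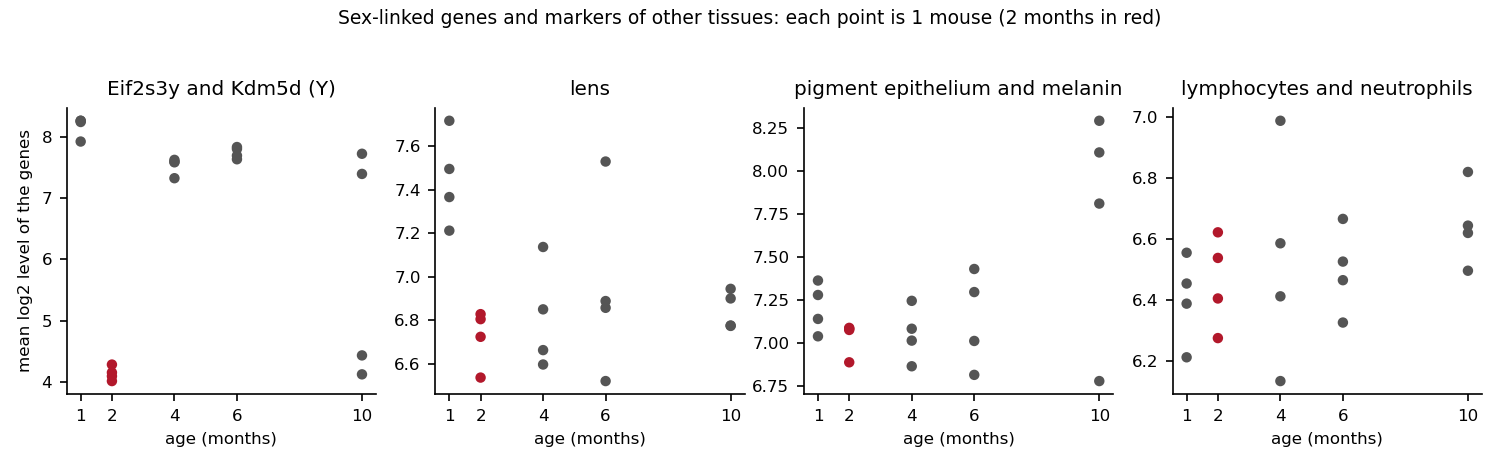
Mean log2 level (y axis) of the 2 Y-linked genes and of 3 marker lists of other tissues against age in months (x axis), with 1 point per mouse and the 2 month mice in red. The Y-linked genes and the lens genes separated all 1 month mice from all 2 month mice, whereas the ranges of the pigment epithelium list and of the lymphocyte and neutrophil list overlapped.

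Genes of the complement cascade gave the clearest group of rises. Of 12 tested members 8 rose and none fell, with a median difference of 0.62. They covered the recognition molecule of the classical pathway (C1qa, C1qb, C1qc), the component it cleaves (C4b), the central component (C3) and 3 regulators (Serping1, which blocks the C1 proteases, Cfi, which degrades C4b and C3b, and Cd59a, which blocks the membrane attack complex). The members of the alternative pathway Cfb and Cfd had differences of -0.07 and -0.06 and were not called.

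C4b had log2 levels of 8.70, 8.44, 8.50 and 8.56 in the 4 mice of 1 month and 9.55, 9.95, 10.12 and 9.82 in the 4 mice of 2 months. Every mouse of 2 months was above every mouse of 1 month by a wide margin. The difference was 1.31 ± 0.12 (SE), a 2.48-fold rise (adjusted p = 4.38e-06), with all 10 probe sets higher. The near-identical neighbouring gene C4a can share probe sets with C4b, so the split between both genes is uncertain.

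C1qb measured 7.57, 7.53, 7.40 and 7.48 at 1 month and 7.97, 8.36, 8.18 and 8.11 at 2 months, a difference of 0.66 ± 0.11 (adjusted p = 0.00148). C1qa rose by 0.63 ± 0.14 and C1qc by 0.61 ± 0.09 (adjusted p = 0.00826 and 0.000436). In all 3 chains of C1q the ages did not overlap, as in 905 of the 1008 called genes. Among the regulators, Cd59a went from 8.37, 8.07, 7.56 and 7.92 to 8.76, 9.02, 9.13 and 8.98, a 1.99-fold rise (0.99 ± 0.15, adjusted p = 0.000453). Serping1 went from 8.35, 8.06, 8.16 and 8.13 to 8.71, 8.99, 9.34 and 9.05 (0.84 ± 0.12, adjusted p = 0.000425). Cfi rose by 0.76 ± 0.12 (adjusted p = 0.000884) and C3 by 0.32 ± 0.08 (adjusted p = 0.0147). The call of Cfi was lost when the brightest probe set stood for the gene (adjusted p = 0.265).

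The complement genes went different ways at later ages, all of which are compared with the same 1 month arrays. C4b stayed at 9.90 ± 0.19 at 4 months and was at 9.36 ± 0.02 at 10 months, where the low and the high Y-linked arrays had means of 9.38 and 9.35. Cd59a was at 9.20 ± 0.18, 9.11 ± 0.24 and 9.11 ± 0.15 at 4, 6 and 10 months. C1qb, by contrast, was back at 7.63 ± 0.22 by 4 months and at 7.27 ± 0.15 by 10 months, below its level at 1 month.

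**Figure D2:**
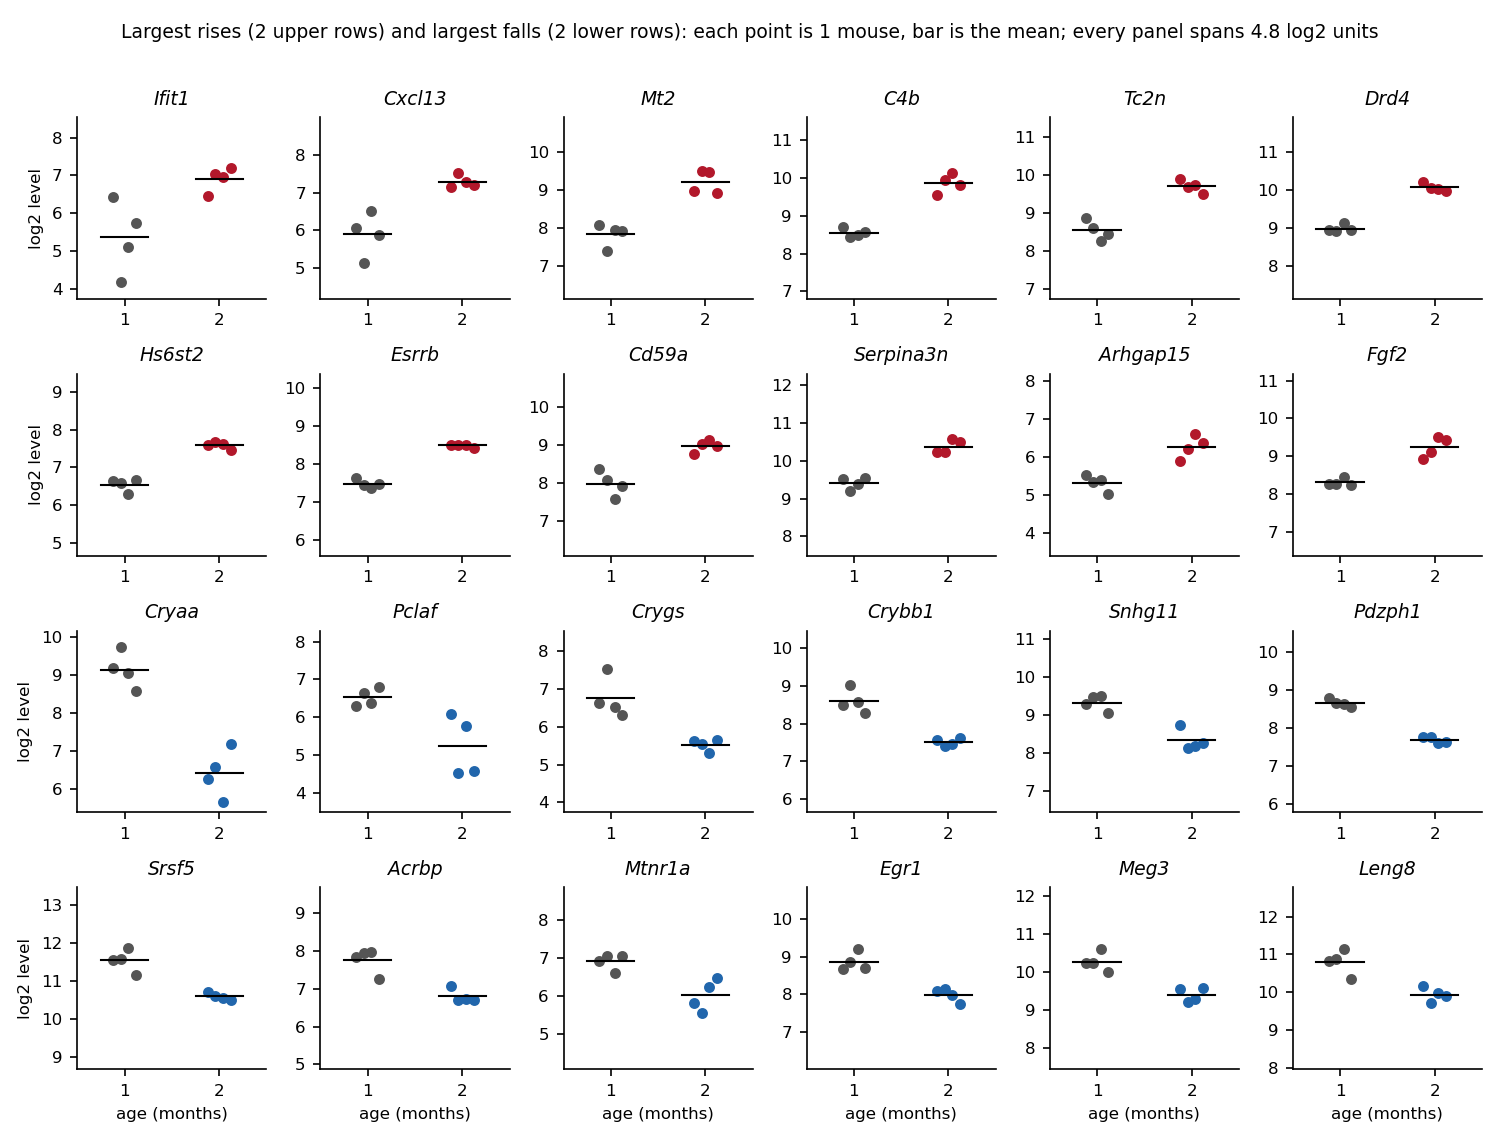
Log2 level (y axis) in each mouse at 1 and 2 months (x axis) for the 12 largest rises and the 12 largest falls among called genes without overlap, each panel spanning the same range of log2 units, points for mice and bars for means. C4b rose from a mean of 8.55 to 9.86 and Esrrb from 7.47 to 8.49 with little spread, whereas Ifit1 spread from 4.18 to 6.43 at 1 month.

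Microglia, the resident macrophages of the retina, express C1q, and some of their other markers rose as well. Of 24 tested members of the microglia and macrophage list 8 rose, none fell, and all 24 differences were above 0, with a median of 0.27. Those that rose were the lysosomal protease gene Ctss, the integrin gene Itgam (CD11b), the adaptor gene Tyrobp, Ly86, Laptm5, the Fc receptor gene Fcgr3, Tmem119 and the CSF1 receptor gene Csf1r.

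Ctss measured 8.91, 8.80, 8.87 and 8.75 at 1 month and 9.39, 9.64, 9.78 and 9.47 at 2 months (0.74 ± 0.11, adjusted p = 0.000467). Itgam measured 6.67, 6.31, 6.48 and 6.49 at 1 month and 6.87, 7.13, 7.22 and 7.21 at 2 months (0.62 ± 0.08, adjusted p = 0.000218), with all 31 probe sets higher. Neither gene overlapped between the ages. Tyrobp rose by 0.59 ± 0.12 and Ly86 by 0.53 ± 0.12 (adjusted p = 0.0050 and 0.00902), and Tmem119, a marker of resident microglia in particular, by 0.40 ± 0.07 (adjusted p = 0.00116). Other markers differed little between the ages. Cx3cr1, the fractalkine receptor gene, had a difference of 0.10 ± 0.09, P2ry12 one of 0.11 ± 0.09 and Aif1 (IBA1) one of 0.07 ± 0.12, with adjusted p from 0.488 to 0.792. Of listed genes known from phagocytic microglia, Trem2 (0.19 ± 0.10), Cd68 (0.25 ± 0.12), Lgals3 (0.16 ± 0.08) and Spp1 (0.26 ± 0.12) did not pass either. Clec7a, a microglial receptor gene outside the list and named after its value was seen, was called as a rise.

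The mean log2 level of the whole microglia list was 6.52 to 6.65 in the 1 month arrays and 6.81 to 6.94 in the 2 month arrays. At 4, 6 and 10 months it averaged 6.77, 6.66 and 6.59, so 2 months was the highest of the 5 ages. The markers of lymphocytes and neutrophils gave no limma call in 4 tested genes (0 at an unadjusted p under 0.05), with list means of 6.21 to 6.56 and 6.28 to 6.62 at 1 and 2 months. The number of microglia genes called fell to 1 with the brightest probe set, where the calls of Itgam and Ly86 were lost (adjusted p = 0.0846 and 0.442), and that of Tyrobp was lost with quantile normalization (adjusted p = 0.0773).

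**Figure D3:**
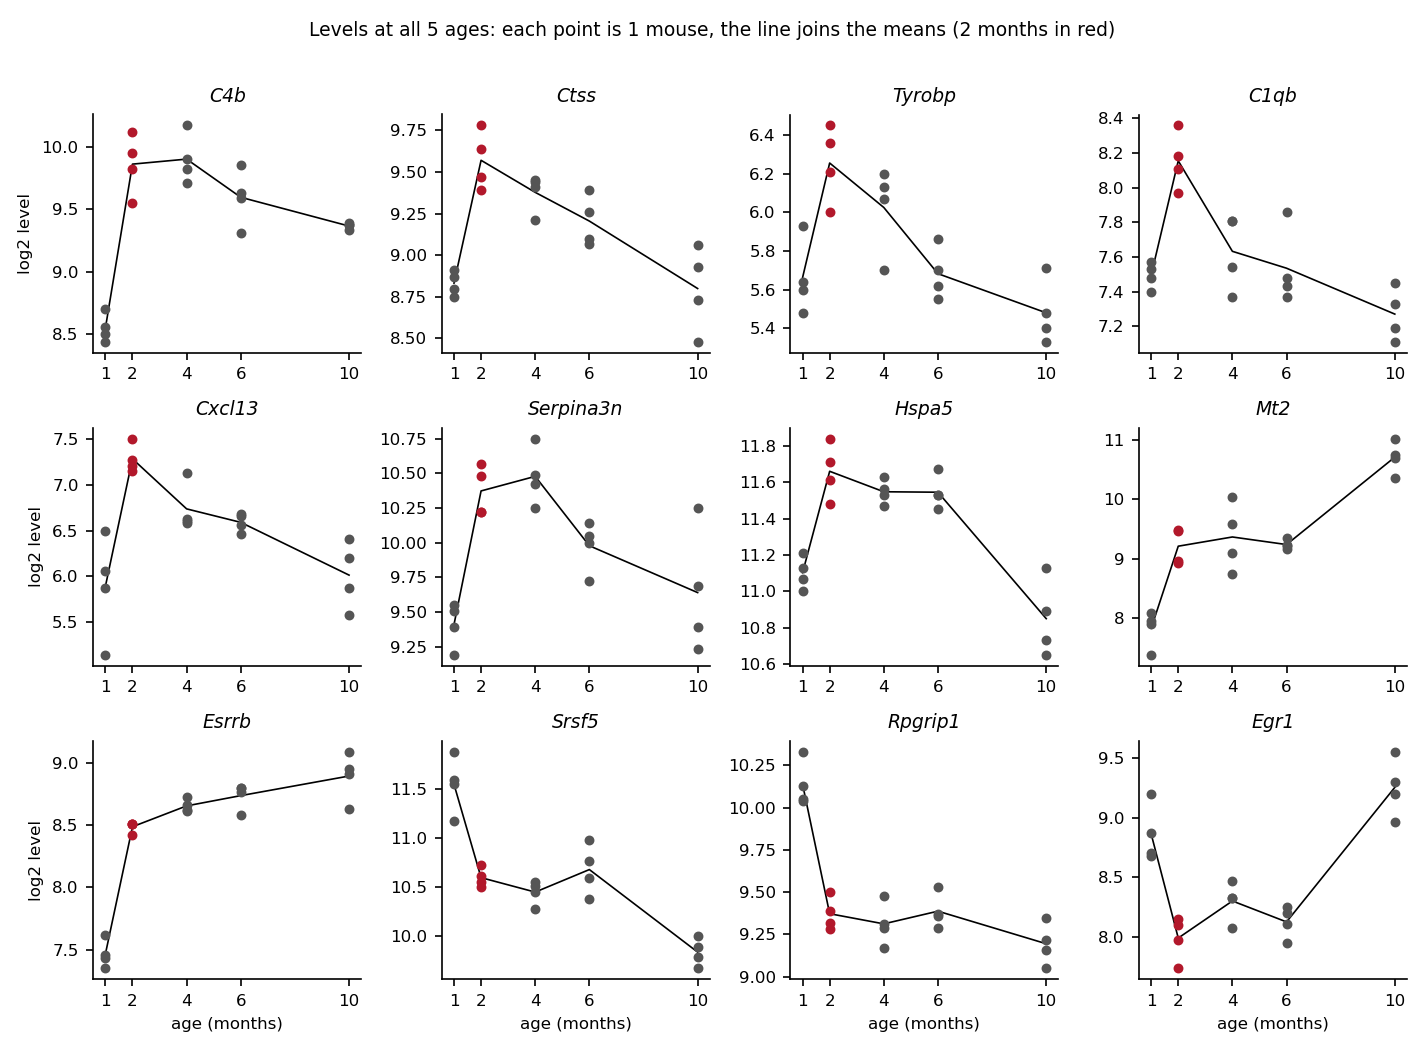
Log2 level in each mouse (points; y axis, own scale in each panel) against age in months (x axis) for 12 genes, the lines joining the means and the 2 month mice in red. Tyrobp, Ctss, C1qb and Cxcl13 had their highest mean at 2 months, Esrrb and Mt2 were higher still at 10 months, and Egr1 was lowest at 2 months and highest at 10 months.

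Some genes of the interferon response and of antigen presentation rose. Interferons induce a set of antiviral genes through a promoter element, the interferon-stimulated response element, and raise the machinery that shows peptides on MHC class I. Of 19 tested interferon genes 4 rose (Ifit1, Trim30a, Oasl2 and Ifit2), 18 differences were above 0 and the median was 0.32. Of 13 tested antigen presentation genes 5 rose (B2m, H2-D1, Psmb8, Cd74 and H2-K1), all 13 differences were above 0 and the median was 0.19. None of either list fell. The mean log2 level of the interferon list was 6.40 to 7.05 at 1 month and 6.97 to 7.33 at 2 months, so the ages overlapped. The interferon count was 2 when replicate 2 of 1 month or the fourth mouse of 2 months was left out; the antigen presentation count was 3 without replicate 2, 3 or 4 of 1 month or the third mouse of 2 months, and 2 without the fourth.

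Ifit1, which encodes a sensor of foreign RNA caps, had the largest rise among the called genes without overlap. Its log2 levels were 6.43, 4.18, 5.11 and 5.74 at 1 month and 6.46, 7.04, 6.96 and 7.19 at 2 months. The mice of 1 month spread widely and the highest of them came within 0.03 of the lowest of 2 months. The difference was 1.55 ± 0.38 (adjusted p = 0.0151) and rested on 1 probe set. The call was lost with replicate 2 of 1 month left out (adjusted p = 0.0571), and likewise replicate 4 of 2 months (adjusted p = 0.0552). Oasl2 gave narrower groups, 7.94, 7.48, 7.81 and 7.70 against 8.13, 8.31, 8.47 and 8.40 (0.59 ± 0.11, adjusted p = 0.00194). Trim30a rose by 0.70 ± 0.16 (adjusted p = 0.0106). Ifit2 rose by 0.28 ± 0.08 (adjusted p = 0.0315), a call that was lost in 6 of the 8 fits that left out 1 array, with adjusted p up to 0.113 without replicate 4 of 2 months. Ifit3 (0.93 ± 0.54), Gbp2 (0.79 ± 0.27), Irf7 (0.69 ± 0.23) and Rsad2 (0.37 ± 0.12) were not called, with adjusted p from 0.0739 to 0.341.

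B2m, the light chain of every MHC class I molecule, measured 8.77, 8.37, 8.50 and 8.54 at 1 month and 9.23, 9.41, 9.43 and 9.42 at 2 months. The 2 month mice lay close together and all above those of 1 month. The rise was 0.83 ± 0.10, or 1.78-fold (adjusted p = 8.68e-05), and it was called under all 21 alternatives tried. Psmb8, a catalytic subunit of the immunoproteasome, rose by 0.54 ± 0.11 (adjusted p = 0.0050) and the class I heavy chain genes H2-D1 and H2-K1 by 0.54 ± 0.14 and 0.43 ± 0.11 (adjusted p = 0.0175 and 0.0170). Heavy chain genes of the H2 cluster are close copies, so their probe sets may share signal. Cd74, the invariant chain of class II, rose by 0.50 ± 0.14 (adjusted p = 0.0347). Its call was lost in 7 of the 8 fits without 1 array (adjusted p up to 0.117, without replicate 1 of 1 month), and that of H2-D1 in 4 of them (up to 0.0679, without replicate 3 of 2 months).

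The promoters of Ifit1 and B2m are shown because both hold the core of the interferon-stimulated response element. The letters searched were GAAANNGAAA on both strands of the 300 bases around each RefSeq start, and the 250 bases before the start are printed 5′ to 3′ on the strand of the gene with matches in capitals (GRCm38.p6; Ifit1 chr19:34640639-34640888, plus strand; B2m chr2:122147437-122147686, plus strand).
Ifit1: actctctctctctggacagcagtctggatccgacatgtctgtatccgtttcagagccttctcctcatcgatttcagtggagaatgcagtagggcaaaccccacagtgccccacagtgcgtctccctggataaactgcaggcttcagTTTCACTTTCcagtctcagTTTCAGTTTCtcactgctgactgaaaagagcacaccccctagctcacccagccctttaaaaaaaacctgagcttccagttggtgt
B2m: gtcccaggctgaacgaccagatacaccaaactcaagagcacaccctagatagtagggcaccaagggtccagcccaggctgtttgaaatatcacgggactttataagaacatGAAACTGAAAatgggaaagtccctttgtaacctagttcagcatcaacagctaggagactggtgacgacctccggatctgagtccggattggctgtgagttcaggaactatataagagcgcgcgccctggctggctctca

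Ifit1 held 2 matches, beginning 104 and 85 bases before the start, and B2m held 1 match, 139 bases before it. Of the 15 interferon genes with a window 9 held the core, against 3.44% of all 32851 windows and 3.31% of the tested genes with a window. Among the 4 called interferon genes these were Ifit1 and Trim30a. Of the 9 antigen presentation genes with a window B2m alone held it. A match describes the letters of the window only.

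Of the chemokine and cytokine genes, 3 of 10 tested members rose and none fell, with a median of 0.06. Cxcl13, a chemokine that attracts B lymphocytes, measured 6.06, 5.14, 6.50 and 5.87 at 1 month and 7.15, 7.51, 7.28 and 7.21 at 2 months. All mice of 2 months were above all of 1 month, and the spread narrowed from an SD of 0.57 to 0.16. The rise was 1.39 ± 0.21, or 2.62-fold (adjusted p = 0.000613), and the mean was back at 6.01 ± 0.36 at 10 months. Il33, an alarmin kept in the nucleus of glia, rose by 0.64 ± 0.12 (adjusted p = 0.00269) and was at 8.53 ± 0.20, 8.76 ± 0.04 and 8.89 ± 0.27 at 4, 6 and 10 months. The call of Il33 was lost with the brightest probe set (adjusted p = 0.291). Cxcl16 rose by 0.27 ± 0.07 (adjusted p = 0.0272), with the call lost in 5 of the 8 fits without 1 array (adjusted p up to 0.0945, without replicate 4 of 2 months). Tnf (0.02) and Cxcl10 (-0.03) had differences near 0.

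Some genes of reactive glia rose. Of 20 tested members of the gliosis list 8 rose, none fell and all 20 differences were above 0, with a median of 0.36. They were the acute-phase genes Serpina3n, A2m, Lcn2 and Cp, the growth factor gene Fgf2, the iron reductase gene Steap4, and Stat3 and Socs3, the transcription factor of the interleukin-6 family signal and the inhibitor it induces.

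Serpina3n, a serine protease inhibitor made by reactive glia, measured 9.51, 9.19, 9.39 and 9.55 at 1 month and 10.22, 10.22, 10.57 and 10.48 at 2 months (0.96 ± 0.17, 1.94-fold, adjusted p = 0.00152). Fgf2, which encodes a growth factor known to protect photoreceptors, measured 8.26, 8.28, 8.45 and 8.25 at 1 month and 8.92, 9.12, 9.50 and 9.43 at 2 months (0.93 ± 0.12, 1.91-fold, adjusted p = 0.000119). Both genes were separated in all mice, and the call of Fgf2 held under all 21 alternatives, although 3 of its 5 probe sets were higher. Nudt6, which is transcribed across Fgf2 on the other strand, rose by 0.70 ± 0.11 (adjusted p = 0.000665); it was looked up after the value of Fgf2 was seen, and how far either signal holds the other was not tested. At 10 months Serpina3n was at 9.64 ± 0.45 and Fgf2 at 8.63 ± 0.08.

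Stat3 rose by 0.34 ± 0.08 (adjusted p = 0.0111) and Socs3 by 0.44 ± 0.13 (adjusted p = 0.0416). The receptor genes upstream of them were not called, with Osmr at 0.31 ± 0.13 (adjusted p = 0.160) and Il6st at 0.22 ± 0.07 (adjusted p = 0.0712). Gfap, the intermediate filament gene most used as a marker of gliosis, measured 8.54, 8.25, 8.42 and 8.28 at 1 month and 8.37, 8.62, 9.01 and 9.0 at 2 months. Replicate 1 of 2 months lay inside the range of 1 month and the other 3 above it. The difference of 0.38 ± 0.13 did not pass (adjusted p = 0.0797), and at 4 months Gfap was at 8.42 ± 0.17. Vim differed by 0.10 ± 0.05 (adjusted p = 0.307). Ednrb, an endothelin receptor gene, fell just short of the threshold at 0.90 ± 0.28 (adjusted p = 0.0509), although its 4 and 4 arrays did not overlap. Lcn2 (0.63 ± 0.16, adjusted p = 0.0195) and A2m (0.63 ± 0.18, adjusted p = 0.0300) lost their calls in 4 and 6 of the 8 fits without 1 array, with adjusted p up to 0.0782 without replicate 4 of 2 months for Lcn2 and up to 0.107 without replicate 3 of 2 months for A2m. With 1 array left out the count of 8 was 5 (replicate 2 or 3 of the younger age, or 2 of the older) or as low as 4 (replicate 3 or 4 of the older).

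Genes that mark Muller glia at rest gave 5 rises and no fall in 20 tested, with a median of 0.18. Hes1, a target of Notch, measured 8.13, 8.14, 8.25 and 8.16 at 1 month and 8.50, 8.76, 8.59 and 8.50 at 2 months (0.41 ± 0.07, adjusted p = 0.000804). The apolipoprotein genes Apoe and Clu rose by 0.38 ± 0.07 and 0.35 ± 0.06 (adjusted p = 0.00178 and 0.000884). Aqp4, the water channel of the endfeet, and Kcnj10, their potassium channel, rose by 0.37 ± 0.09 and 0.24 ± 0.07 (adjusted p = 0.0109 and 0.0311). In none of the 5 did the ages overlap, as in 905 of the 1008 called genes. The identity genes Sox9 (-0.04 ± 0.06), Rlbp1 (0.16 ± 0.06) and Glul (0.07 ± 0.06) did not pass. With the brightest probe set the calls of Apoe and Aqp4 were lost (adjusted p = 0.0713 and 0.185).

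The metallothioneins, small proteins that bind zinc and copper, gave 2 rises in 6 tested genes of the list. Mt2 measured 8.08, 7.38, 7.95 and 7.91 at 1 month and 8.96, 9.49, 9.46 and 8.93 at 2 months, a 2.60-fold rise (1.38 ± 0.22, adjusted p = 0.000776). Mt1 measured 10.77, 10.72, 10.99 and 10.73 at 1 month and 11.18, 11.51, 11.54 and 11.43 at 2 months (0.61 ± 0.10, adjusted p = 0.00101). Both were separated in all mice. Both were higher still at 10 months, with Mt2 at 10.71 ± 0.27 and Mt1 at 12.23 ± 0.15. Mt3, the form made in neurons, differed by 0.10 ± 0.10 (adjusted p = 0.578). The call of Mt1 was lost when probe sets were averaged (adjusted p = 0.149).

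The promoter of Mt2 is shown for its metal response elements, the sites through which the factor MTF1 reads zinc. The core letters searched were TGCGCNC or TGCACNC on both strands, in capitals here (GRCm38.p6, chr8:94172368-94172617, plus strand).
Mt2: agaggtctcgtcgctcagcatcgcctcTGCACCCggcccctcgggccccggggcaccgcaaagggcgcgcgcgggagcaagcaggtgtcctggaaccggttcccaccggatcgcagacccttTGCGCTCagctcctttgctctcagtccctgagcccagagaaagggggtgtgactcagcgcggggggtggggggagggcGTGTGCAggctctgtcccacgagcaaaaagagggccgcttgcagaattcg

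The printed stretch held 3 matches. The core is short, and 25.7% of all windows and 40.7% of the tested genes with a window held it. The 5 of 6 list members that did, Mt1 and Mt2 among them, thus stand beside a high background.

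Some genes of the unfolded protein response rose by small amounts. This response of the endoplasmic reticulum raises chaperones and folding enzymes when unfolded protein builds up. Of 21 tested members 9 rose and none fell, with a median of 0.22. They were the chaperone gene Hspa5 (BiP) with its helpers Sdf2l1, Dnajc3 and Hyou1, the lectin chaperone gene Calr, the disulphide isomerase gene Pdia6, the secreted factor gene Manf, Herpud1, which serves the breakdown of misfolded protein, and the transcription factor gene Xbp1.

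Hspa5 measured 11.21, 11.00, 11.07 and 11.13 at 1 month and 11.48, 11.71, 11.61 and 11.84 at 2 months (0.56 ± 0.09, adjusted p = 0.000978). Sdf2l1 measured 6.76, 6.75, 6.86 and 7.01 at 1 month and 7.37, 7.44, 7.24 and 7.42 at 2 months (0.52 ± 0.07, adjusted p = 0.000193). Dnajc3 measured 9.49, 9.51, 9.52 and 9.60 at 1 month and 9.82, 9.97, 9.86 and 10.09 at 2 months (0.40 ± 0.08, adjusted p = 0.00354). In all 3 genes the ages were apart, as in 905 of the 1008 called genes. Not all chaperones of the compartment moved. Hsp90b1 (GRP94) had a difference of -0.01 ± 0.08 and Dnajb11 one of -0.08. The levels of Hspa5 at 4 and 6 months were 11.55 ± 0.06 and 11.54 ± 0.09, and at 10 months 10.85 ± 0.21, under that of 1 month. Xbp1 (0.38 ± 0.11, adjusted p = 0.0354) lost its call in 7 of the 8 fits without 1 array (adjusted p up to 0.140, without replicate 4 of 2 months). The count of 9 became 5 when a mouse was left out (replicate 2 or 4 of the younger age, 3 or 4 of the older), and 3 with the brightest probe set, where Sdf2l1 was among those lost (adjusted p = 0.700).

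Promoters of the Hspa5 and Dnajc3 genes are shown because both hold the endoplasmic reticulum stress response element, which ATF6 and XBP1 are known to bind. The letters searched were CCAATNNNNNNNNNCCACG on both strands (GRCm38.p6; Hspa5 chr2:34771840-34772089, plus strand; Dnajc3 chr14:118937682-118937931, plus strand).
Hspa5: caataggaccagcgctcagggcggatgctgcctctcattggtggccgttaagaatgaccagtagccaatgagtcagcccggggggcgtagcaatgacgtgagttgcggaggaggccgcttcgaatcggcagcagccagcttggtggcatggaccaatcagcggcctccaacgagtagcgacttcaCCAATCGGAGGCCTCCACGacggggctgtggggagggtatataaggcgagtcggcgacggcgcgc
Dnajc3: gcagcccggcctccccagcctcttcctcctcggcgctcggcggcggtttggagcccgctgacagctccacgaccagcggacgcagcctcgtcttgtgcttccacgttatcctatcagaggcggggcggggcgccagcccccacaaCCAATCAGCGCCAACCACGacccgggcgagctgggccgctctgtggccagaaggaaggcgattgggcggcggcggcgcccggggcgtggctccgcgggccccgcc

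The match began 65 bases before the start in Hspa5 and 105 in Dnajc3. Of 19 members with a window 8 held the element, against 0.119% of all windows and 0.169% of the tested genes with a window. The 7 called members with a window included 4 with it (Hspa5, Dnajc3, Pdia6 and Calr).

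The integrated stress response, which slows translation and raises amino acid uptake and synthesis through ATF4, gave 2 rises in 16 tested genes and a median of 0.14. Over all tested genes 3.26% rose. Slc7a11, the cystine transporter gene, measured 5.60, 5.57, 5.78 and 5.57 at 1 month and 5.80, 6.51, 7.10 and 6.22 at 2 months. Replicate 1 of 2 months was just above the highest mouse of 1 month and the others spread upwards. The rise of 0.78 ± 0.21 (adjusted p = 0.0257) lost its call in 4 of the 8 fits without 1 array (adjusted p up to 0.0869, without replicate 3 of 2 months). Atf3 (0.42 ± 0.13, adjusted p = 0.0457) lost its call in all 8 (0.0545 to 0.121). Asns (0.35 ± 0.11, adjusted p = 0.0559) and Ddit3 (CHOP; 0.26 ± 0.08, adjusted p = 0.0668) did not pass.

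Of 22 tested antioxidant genes 2 rose, beside 3.26% of all tested genes, with a median of 0.07. Prdx6, a peroxiredoxin that repairs oxidised membrane lipid, measured 9.56, 9.64, 9.50 and 9.63 at 1 month and 10.01, 10.20, 9.98 and 9.96 at 2 months (0.45 ± 0.07, adjusted p = 0.000598) and was at 10.41 ± 0.08 at 10 months. Sod2 rose by 0.21 ± 0.06 (adjusted p = 0.0314), a call lost in 4 of the 8 fits without 1 array (adjusted p up to 0.125, without replicate 4 of 2 months). Gpx3, a secreted glutathione peroxidase gene, showed the mice of 2 months to be unlike each other. It measured 6.53, 6.62, 6.78 and 6.97 at 1 month but 7.04, 9.27, 10.33 and 6.94 at 2 months, so replicates 2 and 3 stood far above the rest. The difference of 1.67 ± 0.75 was not called (adjusted p = 0.193), and the SD was 1.33 at 6 months and 1.5 at 10 months. In the cell death list 1 of 12 tested genes was called, beside 8.53% of all tested genes. The called gene was Tnfrsf1a, a receptor for tumour necrosis factor, which rose by 0.41 ± 0.09 (adjusted p = 0.00545, and 0.0624 with the brightest probe set).

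**Figure D4:**
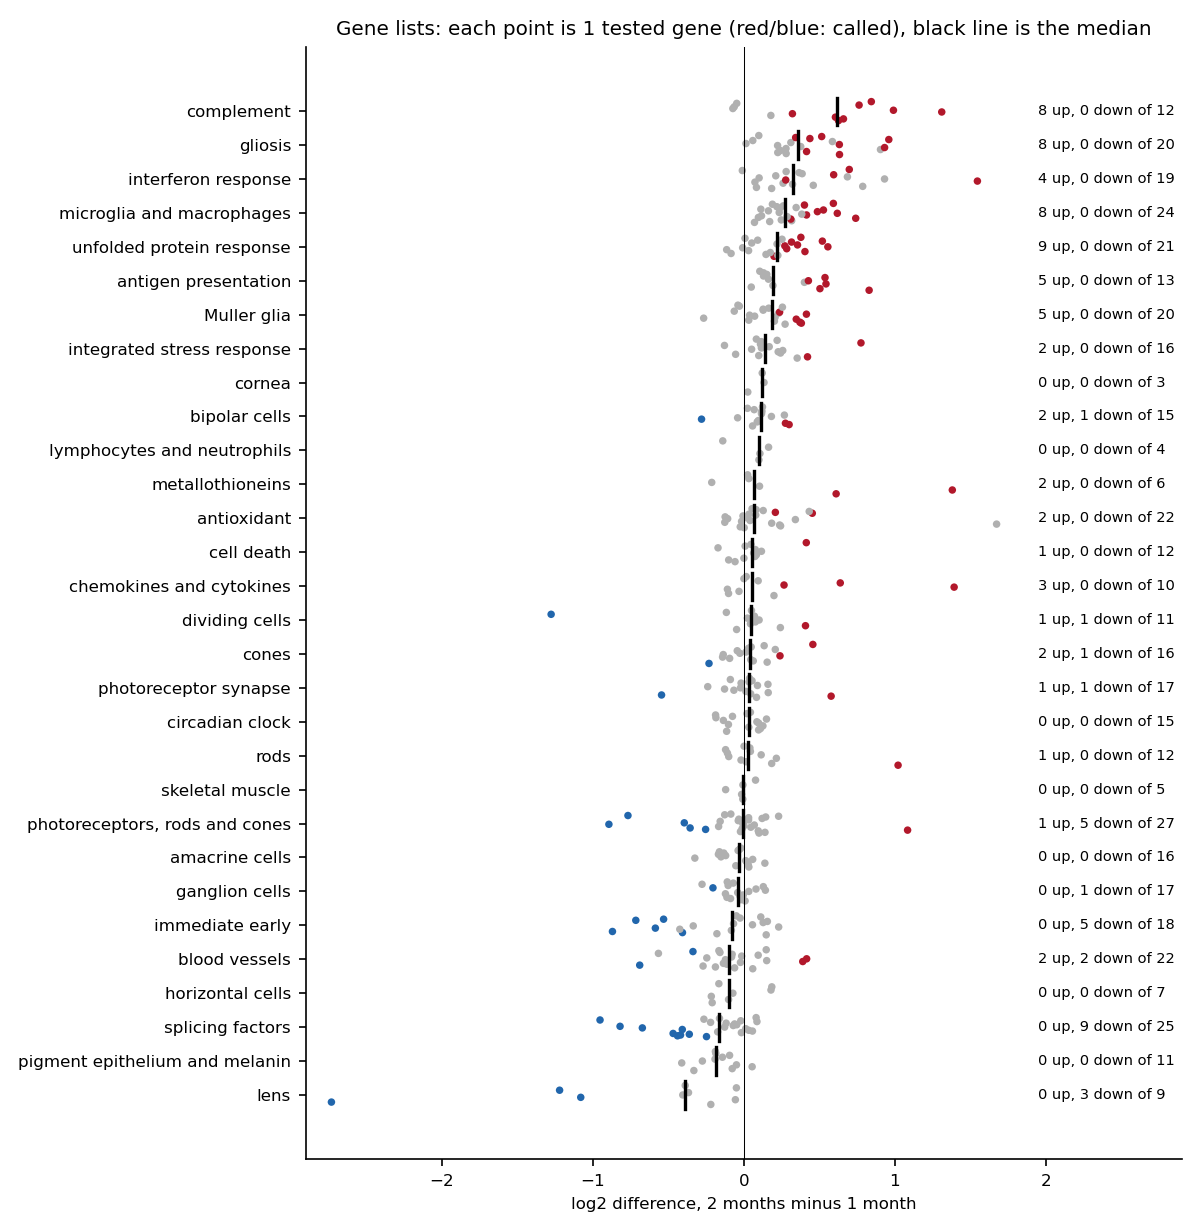
Log2 difference between 2 and 1 month (x axis) for every tested gene of each list (rows, sorted by the median), with red and blue for genes called higher and lower, grey for others, a black line for the median and the counts at the right. The complement list had the highest median (0.62) and the lens list the lowest (-0.39), and the cone, rod and synapse medians lay near 0.

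Some photoreceptor genes rose and others fell. Of 16 tested cone genes 2 rose and 1 fell, beside 8.53% called of all tested genes, with a median of 0.04. The cone opsin and phototransduction genes differed little. Opn1sw measured 13.73, 13.65, 13.67 and 13.68 at 1 month and 13.67, 13.69, 13.71 and 13.72 at 2 months. Opn1mw (-0.03 ± 0.06), Gnat2 (0.05 ± 0.05) and Pde6c (-0.04 ± 0.06) had adjusted p from 0.656 to 0.852. These genes are among the brightest of the array, and whether signal still follows RNA there was not tested. Thrb, the thyroid hormone receptor that directs the choice of opsin, measured 9.20, 9.19, 9.03 and 9.14 at 1 month and 9.58, 9.60, 9.50 and 9.70 at 2 months (0.46 ± 0.06, adjusted p = 0.000193). Grk1, the opsin kinase gene, rose by 0.24 ± 0.07 (adjusted p = 0.0285), and cone arrestin, Arr3, fell by 0.23 on the log2 scale (SE 0.07, adjusted p = 0.0417). Grk1 lost its call in 7 and Arr3 in 6 of the 8 fits without 1 array, with adjusted p up to 0.0733 (Grk1) and 0.131 (Arr3), both without replicate 3 of 1 month.

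Of 27 tested genes shared by rods and cones 1 rose and 5 fell, with a median of -0.01. Over all tested genes 3.26% rose and 5.26% fell. Drd4, the dopamine receptor gene of photoreceptors, measured 8.94, 8.93, 9.15 and 8.94 at 1 month and 10.23, 10.07, 10.03 and 9.97 at 2 months, a 2.12-fold rise (1.08 ± 0.19, adjusted p = 0.00148). Mtnr1a, a receptor gene for melatonin, went the other way, from 6.93, 7.06, 6.61 and 7.07 to 5.81, 5.56, 6.25 and 6.48, a 1.86-fold fall (-0.89 ± 0.19, adjusted p = 0.00704). Neither gene overlapped. In the fit that adjusts for Y-linked signal the difference of Drd4 was 0.317 (adjusted p = 0.603 by limma) and that of Mtnr1a -0.943 (adjusted p = 0.214), and at 10 months Drd4 was higher in the arrays low in Y-linked genes. Drd4 is known to cycle over the day, and the labels do not give the hour of collection. The list of circadian clock genes gave no limma call in 15 tested (4 at an unadjusted p under 0.05), with a median of 0.03 and differences from -0.19 to 0.15. Over all 11824 tested genes 2586 had an unadjusted limma p under 0.05.

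Rpgrip1, a protein of the connecting cilium whose loss causes photoreceptor degeneration, measured 10.13, 10.04, 10.33 and 10.05 at 1 month and 9.50, 9.32, 9.28 and 9.39 at 2 months. All 29 of its probe sets were lower, and the fall was 1.70-fold (-0.77 ± 0.08, adjusted p = 4.45e-05). It stayed at 9.31 ± 0.13, 9.39 ± 0.10 and 9.20 ± 0.12 at 4, 6 and 10 months. Nxnl2, the gene of a thioredoxin-like factor that sustains cones, fell from 9.86, 9.80, 9.78 and 9.54 to 9.30, 9.34, 9.38 and 9.38 (-0.39 ± 0.07, adjusted p = 0.0011) and reached 8.27 ± 0.10 at 10 months. Guca1b, a regulator of guanylate cyclase, and the ciliary gene Fam161a differed by -0.36 ± 0.11 and -0.25 ± 0.07 (adjusted p = 0.0483 and 0.0282). The falls in this list numbered 3 in place of 5 when a mouse was left out (replicate 2 or 3 of the younger age, 2, 3 or 4 of the older) and 1 with the brightest probe set, where Nxnl2 had an adjusted p of 0.0797.

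At the photoreceptor synapse 1 of 17 tested genes rose and 1 fell, beside 8.53% called of all tested genes. Both genes belong to the calcium channel of the ribbon. Cabp4, the calcium-binding protein that tunes this channel, measured 9.47, 9.46, 9.0 and 9.29 at 1 month and 9.79, 9.82, 9.83 and 10.09 at 2 months (0.58 ± 0.10, adjusted p = 0.00116). Cacna1f, its X-linked pore subunit gene, measured 10.84, 10.85, 10.97 and 10.67 at 1 month and 10.45, 10.27, 10.32 and 10.10 at 2 months (-0.54 ± 0.08, adjusted p = 0.000354), with all 48 probe sets lower. At 4 and 10 months Cacna1f was at 10.33 ± 0.01 and 10.34 ± 0.10, and the 10 month arrays low and high in Y-linked genes averaged 10.38 and 10.30. The ribbon gene Ctbp2 and the vesicle gene Slc17a7 had differences of 0.01 and 0.05.

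Of 12 tested rod genes 1 was called, beside 8.53% of all tested genes. Esrrb, an orphan nuclear receptor gene needed for rod survival, measured 7.62, 7.43, 7.35 and 7.46 at 1 month and 8.51, 8.51, 8.51 and 8.42 at 2 months, a 2.03-fold rise (1.02 ± 0.08, adjusted p = 8.26e-07). The 2 month mice were almost equal and far above those of 1 month. Esrrb was at 8.66 ± 0.05, 8.74 ± 0.11 and 8.90 ± 0.19 at 4, 6 and 10 months, and its call held under all 21 alternatives. The other tested rod genes were not called, with Nr2e3 at a difference of 0.22 ± 0.15, Gnat1 at 0.18 ± 0.09 and Reep6 at -0.12 ± 0.09 (adjusted p = 0.454, 0.240 and 0.483). Pde6b, a rod phosphodiesterase gene which was at 8.39 ± 0.08 at 4 months and at a mean of 8.0 at 10 months, was at 9.09 ± 0.03 at 1 month and 8.98 ± 0.05 at 2 months, a difference of -0.11 ± 0.11 (adjusted p = 0.629).

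Hs6st2, Tc2n and Arhgap15 belong to no list but were among the 12 largest rises. Hs6st2, an X-linked gene for a sulfotransferase of heparan sulfate, had the lowest adjusted p of all genes tested. It measured 6.65, 6.59, 6.29 and 6.66 at 1 month and 7.60, 7.68, 7.63 and 7.46 at 2 months (1.04 ± 0.07, adjusted p = 1.09e-07). It went on to 8.16 ± 0.05 at 4 months, a further difference of 0.57 from 2 months (adjusted p = 0.00178), and to 8.56 ± 0.05 at 10 months, with means of 8.57 and 8.54 in the arrays low and high in Y-linked genes. Tc2n measured 8.87, 8.61, 8.27 and 8.44 at 1 month and 9.91, 9.68, 9.75 and 9.51 at 2 months (1.17 ± 0.14, adjusted p = 0.000105). Arhgap15, a Rac GTPase-activating protein gene, rose by 0.95 ± 0.17 (adjusted p = 0.00159, and 0.0552 with the brightest probe set).

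**Figure D5:**
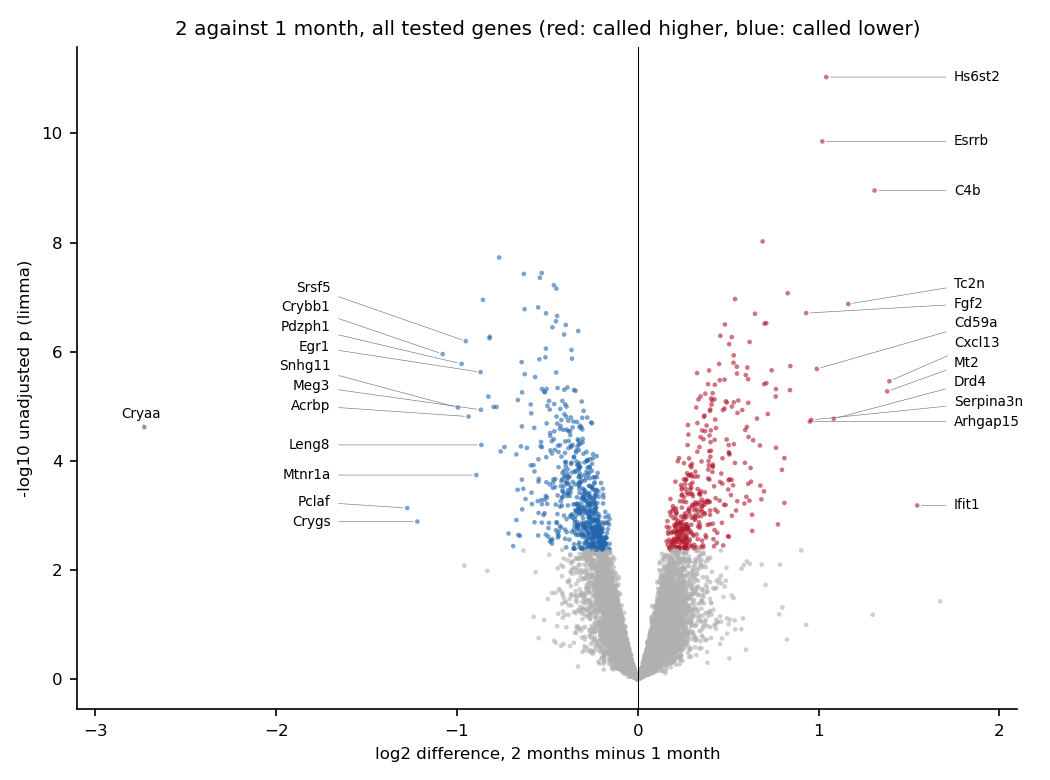
Minus log10 of the unadjusted p from limma (y axis) against the log2 difference between 2 and 1 month (x axis) for the 11824 tested genes, red and blue for genes called higher and lower and names for the 12 largest rises and falls without overlap. Hs6st2, Esrrb and C4b stand highest among the rises, and Cryaa, with a difference of -2.73, lies far to the left of all other genes.

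Calls among genes of inner neurons were confined to the bipolar and ganglion cell lists, beside 8.53% called of all tested genes. In the bipolar list 13 of 15 differences were above 0, with a median of 0.12. The mean log2 level of that list was 9.39 to 9.43 at 1 month and 9.47 to 9.58 at 2 months. Of 15 tested bipolar cell genes Cabp5 and Car8 rose, by 0.30 ± 0.06 and 0.28 ± 0.05 (adjusted p = 0.00513 and 0.00305), and Grm6, the glutamate receptor gene of ON bipolar cells, fell from 9.84 ± 0.11 to 9.56 ± 0.04 (-0.28 ± 0.07, adjusted p = 0.0242). The call of Grm6 was lost in 5 of the 8 fits without 1 array (adjusted p up to 0.0755, without replicate 1 of 1 month), and that of Cabp5 with the brightest probe set (adjusted p = 0.0646). Amacrine and horizontal cell genes gave no call by limma in 16 and 7 tested, with 3 and 4 at an unadjusted p under 0.05. Over all genes these were 2586 of 11824, a smaller share than in the horizontal cell list. The largest differences in the amacrine and horizontal cell lists were -0.32 ± 0.12 in the acetylcholine transporter gene Slc18a3 and -0.22 ± 0.07 in Lhx1 (adjusted p = 0.0923 and 0.0584). Of 17 ganglion cell genes Rbpms fell by 0.20 on the log2 scale (adjusted p = 0.0388), a call lost in all 8 fits without 1 array (0.0541 to 0.140).

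Of 22 tested genes of blood vessels 2 rose and 2 fell, 6 differences were above 0 and the median was -0.10. Over all tested genes 8.53% were called. The mean log2 level of the list was 7.64 to 7.74 at 1 month and 7.58 to 7.62 at 2 months. Flt1, a decoy receptor for vascular endothelial growth factor, rose from 8.49 ± 0.19 to 8.88 ± 0.08 (0.39 ± 0.08, adjusted p = 0.00599), and Mfsd2a, a lipid transporter gene of the blood-retina barrier, from 7.18 ± 0.11 to 7.59 ± 0.13 (0.42 ± 0.09, adjusted p = 0.00553). Cldn5, the tight junction gene of endothelium, fell from 7.19 ± 0.20 to a mean of 6.5 (SD 0.31) (-0.69 ± 0.21, adjusted p = 0.0456), and the receptor gene Tek from 6.90 ± 0.19 to 6.56 ± 0.12 (-0.34 ± 0.09, adjusted p = 0.0242). Cldn5 lost its call in all 8 fits without 1 array (0.054 to 0.160) and Tek in 4 (up to 0.0928, without replicate 4 of 2 months). With the brightest probe set Flt1 and Mfsd2a lost theirs (adjusted p = 0.127 and 0.439). Genes that mark the endothelium as a whole were not called, with Pecam1 at -0.08 and Cdh5 at -0.27.

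Some immediate early genes, which neurons and glia switch on within minutes of a stimulus, fell. Of 18 tested members 5 fell and none rose, with a median of -0.08 over the list. Egr1 measured 8.68, 8.87, 9.20 and 8.70 at 1 month and 8.10, 8.15, 7.98 and 7.74 at 2 months (-0.87 ± 0.13, adjusted p = 0.000491), without overlap, although 4 of its 16 probe sets were higher. Fos measured 8.64, 8.85, 8.94 and 8.60 at 1 month and 8.13, 8.32, 8.17 and 8.07 at 2 months (-0.59 ± 0.14, adjusted p = 0.0147). Npas4, Nr4a1 and Dusp1 had differences of -0.71 ± 0.20, -0.53 ± 0.14 and -0.41 ± 0.09 (adjusted p = 0.0318, 0.0245 and 0.00707). Jun (0.06) and Arc (0.15) differed little. At 10 months Egr1 was at 9.25 ± 0.24 and Fos at 9.35 ± 0.39, above both younger ages. Such genes are known to respond to handling and light before tissue is taken, and neither is recorded in the sources used here. The count of 5 was 3 without replicate 2 of 1 month, and 2 with either the third mouse of that age or the fourth of 2 months left out, where Fos had adjusted p of 0.0525 and 0.0539.

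Of the called immediate early genes, 4 had a promoter window, and 3 of these (Fos, Npas4 and Dusp1) held the core of the cAMP response element, TGACGT. This core was in 7.51% of all windows and in 12.7% of the tested genes with a window. The CArG box, the site of serum response factor, was in none of the called genes with a window and in 1.63% of all windows.

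Part of the list of RNA splicing genes fell. Of 25 tested members 9 fell and none rose, with a median of -0.16. They were the SR protein gene Srsf5, Rsrp1, the U1-associated genes Luc7l3 and Luc7l, the kinases that phosphorylate SR proteins (Clk1, Clk2, Clk3 and Clk4) and the cold-induced gene Cirbp.

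Srsf5 measured 11.55, 11.59, 11.88 and 11.17 at 1 month and 10.72, 10.61, 10.55 and 10.50 at 2 months, a 1.93-fold fall (-0.95 ± 0.13, adjusted p = 0.000216) with all 7 probe sets lower. Rsrp1 measured 10.48, 10.35, 10.29 and 9.99 at 1 month and 9.61, 9.43, 9.55 and 9.25 at 2 months (-0.82 ± 0.11, adjusted p = 0.000193). Luc7l3 fell from 10.48, 10.45, 10.94 and 10.32 to 9.81, 10.07, 9.68 and 9.94 (-0.67 ± 0.13, adjusted p = 0.00389). In none of the 3 did the ages overlap, as in 905 of the 1008 called genes. The 4 Clk genes differed by -0.36 to -0.47. Other members stayed near their level, with Srsf3 at 0.09, Srsf1 at -0.05 and Hnrnph1 at 0.03. Between 8 and 11 splicing genes were called when any array was left out. Srsf5 remained at 10.45 ± 0.12 at 4 months and was at 9.83 ± 0.14 at 10 months. Cirbp differed by -0.25 at 2 months but by 0.76 at 10 months, against the same 1 month arrays.

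Some of the largest falls outside the lists were of long non-coding RNAs. Snhg11, a long non-coding RNA, measured 9.29, 9.48, 9.49 and 9.05 at 1 month and 8.73, 8.12, 8.19 and 8.27 at 2 months (-0.99 ± 0.17, 1.99-fold, adjusted p = 0.00111). Meg3, the imprinted non-coding RNA, fell from 10.22, 10.23, 10.61 and 9.99 to 9.54, 9.21, 9.27 and 9.57 (-0.87 ± 0.15, adjusted p = 0.00116). Leng8 measured 10.83, 10.89, 11.13 and 10.36 at 1 month and 10.16, 9.72, 9.97 and 9.90 at 2 months (-0.86 ± 0.17, adjusted p = 0.00305). None of the 3 overlapped, and replicate 4 of 1 month was the lowest of its age in each. The splicing genes Snrnp70 (-0.66 ± 0.11), Arglu1 (-0.64 ± 0.10) and Hnrnpdl (-0.64 ± 0.11), named after their values were seen, fell as well (adjusted p from 0.000785 to 0.00181). A value for RNA integrity is not among the labels, so its part was not tested.

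The remaining large falls were Pdzph1 (8.66 ± 0.10 to 7.68 ± 0.09, -0.97 ± 0.14, adjusted p = 0.000396), which lost its call with the brightest probe set (adjusted p = 0.559), and Acrbp (7.74 ± 0.34 to 6.81 ± 0.19, -0.94 ± 0.16, adjusted p = 0.00141). Among genes of dividing cells 1 of 11 tested rose and 1 fell, beside 8.53% called of all tested genes. Pclaf, a partner of the replication clamp, measured 6.29, 6.63, 6.39 and 6.79 at 1 month and 6.10, 4.54, 5.78 and 4.59 at 2 months. It rested on 1 probe set, replicates 2 and 4 of 2 months were far below the others, and the fall (-1.27 ± 0.32, adjusted p = 0.0163) lost its call without either of them (adjusted p = 0.0661 and 0.0723). Ccnd1, which in the retina is also a gene of glia, rose by 0.41 ± 0.07 (adjusted p = 0.00104, and 0.0867 with the brightest probe set).

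Lens crystallins gave the largest fall of all. Of 9 tested lens genes 3 fell, none rose and all 9 differences were below 0, with a median of -0.39. Cryaa measured 9.18, 9.74, 9.06 and 8.58 at 1 month and 6.25, 6.57, 5.64 and 7.18 at 2 months, a 6.63-fold fall (-2.73 ± 0.49, adjusted p = 0.00183). Crybb1 fell from 8.48, 9.03, 8.57 and 8.29 to 7.57, 7.40, 7.47 and 7.62 (-1.08 ± 0.15, adjusted p = 0.000319). Both were clear of overlap, and replicate 2 of 1 month was the highest in both. Crygs had a difference of -1.22 ± 0.32 (adjusted p = 0.0239), lost in 4 of the 8 fits without 1 array (adjusted p up to 0.0928, without replicate 2 of 1 month). Crystallins are also known to be made in the retina itself, and retinal and lens sources cannot be told apart here. At 6 months Cryaa had an SD of 1.43 and the lens mean ranged from 6.52 to 7.53, so lens signal varied between mice at that age too. Pigment epithelium and melanin genes gave no call in 11 tested, with all but 1 difference below 0 and 0 genes at an unadjusted limma p under 0.05, and Pmel differed by -0.41 ± 0.33 (adjusted p = 0.515). Cornea and skeletal muscle markers gave no limma call in 3 and 5 tested genes, and 0 at an unadjusted p under 0.05. The red blood cell list had 2 tested genes, of which Alas2 fell by 0.35 on the log2 scale (adjusted p = 0.0222). Its call was lost in 3 of the 8 fits without 1 array (replicates 1 and 3 of the younger age, 3 of the older, with adjusted p from 0.0507 to 0.0793). It was also lost under other settings, such as averaged probe sets (adjusted p = 0.0526).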

How the data were processed

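The authors deposited log2 values per exon probe set made with RMA (robust multi-array average), per the submitters' processing notes; no version or rule for choosing probe sets is stated there. Per the labels' protocols, ribosomal RNA was reduced before sense-strand cDNA was made. Because RMA equalises the arrays' distributions, a change common to all genes cannot be detected. With 4 arrays per age, array number limits the precision.

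Of 194293 probe sets, 179496 had 1 gene symbol in the platform table, 1328 had several (not used) and 13469 had none in it. Levels were median-polished over the probe sets of each of 15781 genes (15744 named in the RefSeq table, median 9 probe sets, 802 genes with 1). The dimmest 25% were left out and 11835 genes fitted, of which 11 Y-linked or X-escape genes were set aside. Differences were tested two-sided with limma 3.58.1 in R 4.3.3 (15 residual degrees of freedom), Benjamini-Hochberg adjusted, and tested on simulated data.

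The members and gene lists were chosen with earlier results of these data known. Named genes were the 12 largest rises and falls without overlap (predicted genes skipped), up to 4 members per list with the largest change, and Nrl, Opn1sw, Opn1mw, Gnat2, Arr3, Pde6c, Gfap and Pde6b; other members were named after their values were seen. Promoter windows are from RefSeq (GRCm38.p6). Alternatives were other probe-set summaries, filters, normalizations, weights, eBayes settings, covariates and arrays left out.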

Additional observations from a re-analysis of the deposited data

Results flagged for a closer look

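Among 272 groups of 4 mice, those of the named genes at 1 and 2 months, 19 had a mouse whose gap to the nearest other exceeded Dixon's critical share of the group's range. Chance flags about 1 in 20 such groups.

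Of the immune and stress genes, the log2 level of B2m in replicate 1 of 2 months (9.23) and that of Il33 in the same mouse (8.23) lay under the other 3, and Ifit2 (7.33) and Trim30a (6.89) in replicate 4 of 2 months lay above them. Replicate 3 of 1 month was highest of its age for Fgf2 (8.45), Slc7a11 (5.78) and Drd4 (9.15), and lowest for Hs6st2 (6.29). Esrrb in replicate 4 of 2 months (8.42) was 0.09 under 3 nearly equal mice.

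The other genes with a mouse apart at 2 months were Acrbp (7.08) and the muscle gene Acta1 (6.67) in replicate 1, the pigment epithelium gene Rgr (8.14) in replicate 2, and Cabp4 (10.1) and Slc18a3 (7.41) in replicate 4. At 1 month they were Cplx4 (10.8) in replicate 1, Rbpms (9.15) in replicate 2, Ccnb2 (6.04) and the cornea gene Krt12 (7.08) in replicate 3, and Nyx (5.87) in replicate 4.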

How the results depend on the processing

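The count of 1008 called genes was 339 with the brightest probe set (called then were 4 gliosis, 2 Muller glia, 2 interferon, 2 antigen presentation and 1 lens gene), 2355 with array weights and 99 with a change of at least 1.5-fold required. Leaving out 1 array gave 529 to 1034; the counts more than 1.5 times lower were 618 without replicate 2 of 1 month and 603, 640 and 529 without replicates 2, 3 and 4 of 2 months. It was 125 with the Y-linked level of each array as a covariate (63.2% of them higher, against 38.3%) and 77 with the lens level (58.4% higher). Neither covariate overlaps between 1 and 2 months. Its slope in these fits came from its variation within the ages. For the Y-linked level that was mainly between the low and high arrays of 10 months, which also differed in pigment epithelium genes. How well such a slope carries over to 1 and 2 months was not tested. The replicate block gave 808; same-numbered mice had correlations of -0.321, -0.0654, -0.29 and 0.0952, so the numbers do not pair them. Of 78 named called genes, 73 kept their direction and 5 their call (B2m, C4b, Esrrb, Fgf2 and Hs6st2) under every one of the 21 alternatives that gave it a value, and 36 their call under the 19 without a covariate. Directions turned for Alas2 (0.349, brightest probe set), Crygs (0.0664, lens level) and, with the Y-linked level, Atf3 (-0.115), Clk4 (0.145), Grk1 (-0.0224) and Pou4f3 (-1.26, uncalled before); the cause was not tested. Among the 58 uncalled named genes, 36 took the other sign under some alternative (64 values).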

Other observations

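Genes outside the lists, named after their values were seen, included rises of Egfr, the epidermal growth factor receptor gene (8.14 ± 0.19 to 8.79 ± 0.11, 0.65 ± 0.08, adjusted p = 0.000119 by limma), and of Fkbp5 and Klf15, which glucocorticoids are known to induce (0.51 ± 0.10 and 0.52 ± 0.11, adjusted p = 0.00389 and 0.00783). Samd7, a Polycomb gene of photoreceptors, rose by 0.76 ± 0.15 (adjusted p = 0.00322), the sodium channel gene Scn7a by 0.76 ± 0.12 (adjusted p = 0.000755) and the microglial receptor gene Clec7a by 0.68 ± 0.15 (adjusted p = 0.00911). Glmn fell from 8.90 ± 0.09 to 8.08 ± 0.06 (-0.83 ± 0.13, adjusted p = 0.000884). The arrays of the 2 ages did not overlap in any of these 7 genes, as in 905 of the 1008 called genes and 17.2% of all tested genes.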
